A study of Sus scrofa with 12 samples.

Results

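The genes described here are 36 chaperones, folding enzymes, translocon subunits and stress response genes of the endoplasmic reticulum (ER). They were chosen by name and looked up in the gene symbols of the array's probe annotation. Of the 36 genes, 31 had a probe set under their symbol, 70 probe sets in all, among 13755 genes with a symbol and 47845 probe sets on the array. Each gene was read from its probe set with the highest mean. The other 5 genes, HSP90B1, CALR, CANX, SYVN1 and DERL1, were not analysed here.

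The values come from duodenal mucosa of 12 pigs, 1 Affymetrix Snowball array per pig, each pig 140 days old and with an identifier of its own. Pigs were labelled as having high or low feed efficiency (FE), the yield of growth from feed. High FE pigs 1 to 3 and low FE pigs 1 to 3 were male, and pigs 4 to 6 of both groups were female, so that each FE group held 3 males and 3 females. The sources used here do not give breed, diet or the way FE was scored. The labels give FE as a characteristic of each pig, and they name no genetic change and no treatment.

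Proteins made for secretion or for the cell surface enter the ER through the SEC61 channel, lose their signal peptide to signal peptidase, and are folded there by Hsp70-type chaperones and protein disulfide isomerases. When unfolded protein accumulates, the sensors ERN1 (IRE1), EIF2AK3 (PERK) and ATF6 start the unfolded protein response. ERN1 splices the mRNA of the transcription factor XBP1, EIF2AK3 slows translation and favours ATF4 and its target DDIT3, and ATF6 is cut to release a transcription factor. Their targets include chaperones and genes of ER-associated degradation, which returns misfolded protein to the cytosol. In the duodenum, goblet cells, Brunner gland cells, enteroendocrine cells and plasma cells carry heavy secretory loads and depend on this machinery.

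All values are log2 values as deposited, so a difference of 1 is a doubling of signal. Array medians ranged from 3.83 to 3.91 over the 12 pigs. Control probe sets that match no transcript had medians between 2.16 and 2.53 per array. All 31 genes had every pig above the highest of those background medians, with the lowest single value, 3.73, in TRIB3. Their SD over the 12 pigs ranged from 0.14 for SEL1L to 0.73 for DERL2, with a median of 0.23, against 0.30 over all 33405 probe sets tested. Here and below, all probe sets include those without a symbol and several per gene. They were not matched to the 31 genes in signal. The tissue label was checked with 13 enterocyte markers on the array, all of which lay above the background medians, with a mean value of 8.30 to 10.21 per pig. All 11 smooth muscle markers on the array did so too, with a mean value of 7.34 to 8.22 per pig. The check thus shows enterocyte RNA, and neither the purity of the mucosa nor the part of the intestine. Fewer cells of a type and less RNA per cell cannot be told apart in these bulk samples.

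**Figure D1:**
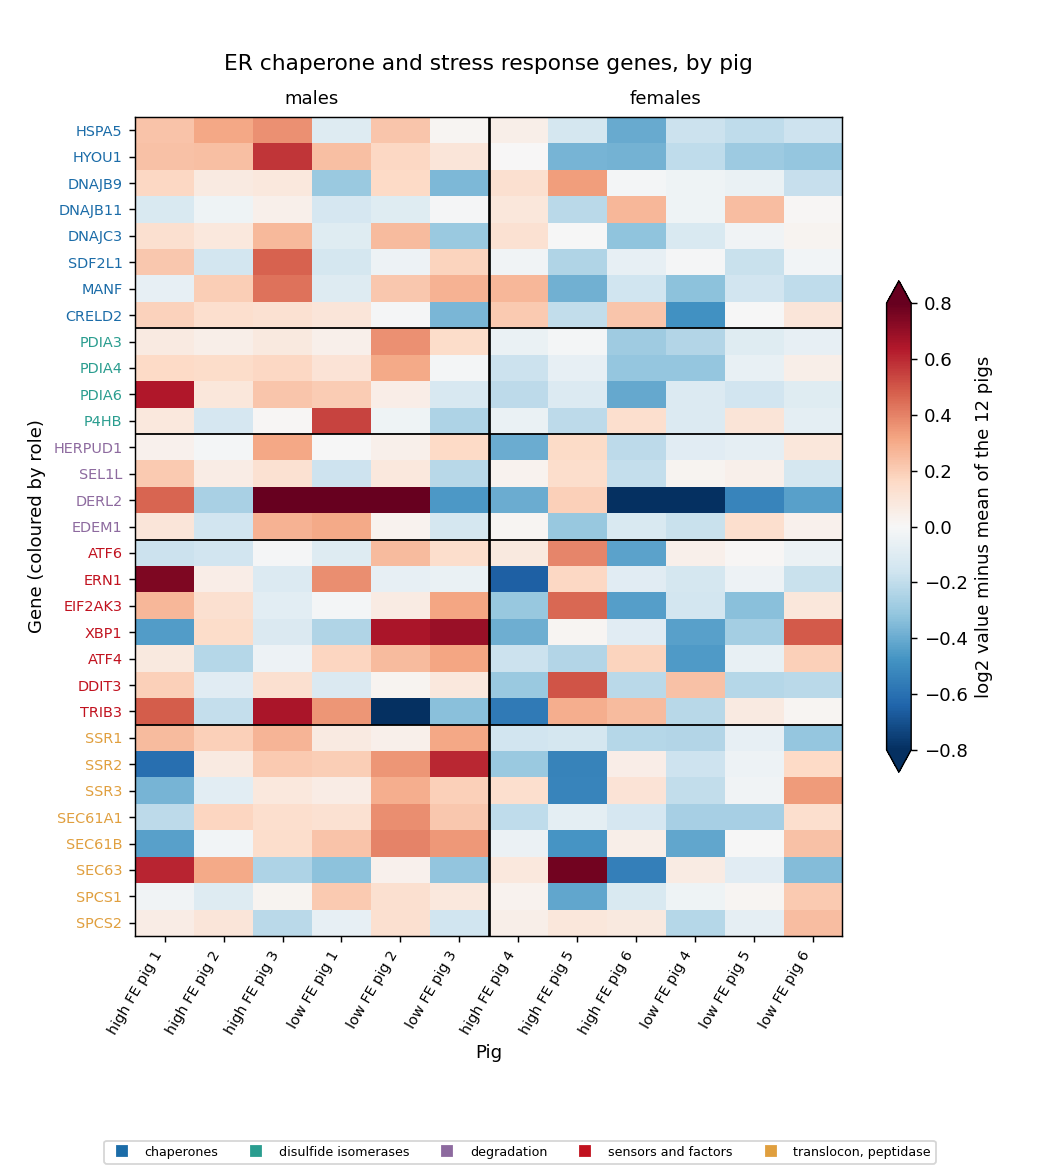
Heat map of the 31 genes (rows, coloured and grouped by role) in the 12 pigs (columns). Colour is the log2 value minus the gene's mean over the 12 pigs, with the scale ending at 0.8 in both directions. Each male pig had 17 to 25 of the 31 genes above the gene's mean, and each female pig had 4 to 16.

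Feed efficiency was the difference the pigs were chosen for. None of the 31 genes passed an adjusted p of 0.05 between high and low FE in limma, and the background was 0% of 33405 probe sets. With an unadjusted p under 0.05 as the limit, 2 of 31 remained, or 6.45%, against a background of 5.99% of all probe sets. These were SSR2, with a lower mean in high FE, and DNAJB9, with a higher one. The count was 3 when high FE pig 6 was left out, and 0 when pig 1, 2 or 5 of the high FE group or pig 3, 5 or 6 of the low FE group was. The median difference over the 31 genes was 0.01, against -0.02 over all probe sets, and 17 of 31 had a higher mean in high FE, or 54.8%, against 46% of all probe sets. No gene separated the 2 FE groups without overlap, and 0.26% of all probe sets did.

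The roles did not lean the same way. Read from the probe set with the highest mean, all 8 measured Hsp70-type chaperones and cofactors were higher on average in high FE. Their median was 0.10 and their range 0.01 to 0.26. The other probe sets of DNAJC3 differed by 0.08, 0.43 and -0.38. Of 17 genes of any role with several tested probe sets, 9 had an FE difference of 1 sign in all of them. Of the 8 translocon and signal peptidase genes, 5 had a lower mean, with a median of -0.16. Disulfide isomerases had a median of -0.04 over 4 genes, degradation genes -0.02 over 4, and sensors and factors 0.01 over 7. These counts and medians describe genes measured on the same arrays, and no difference between roles was tested.

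DNAJB9, an Hsp40 cochaperone of HSPA5 and a classic target of XBP1, had a lowest, median and highest value of 7.94, 8.06 and 8.29 in high FE, against 7.59, 7.84 and 8.12 in low FE. The groups overlapped, although no high FE pig lay below the lowest low FE pig. Its difference was 0.26 ± 0.12 (SE), a fold of 1.19, with an adjusted p of 0.754 in limma. HSPA5 (BiP), the main Hsp70 of the ER, had 10.10, 10.64 and 10.87 in high FE and 10.30, 10.37 and 10.72 in low FE. The high FE pigs spanned the whole low FE range, and the difference of 0.13 ± 0.11 (SE) had an adjusted p of 0.774.

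CRELD2, an ER stress-induced folding factor, had 5 of 6 high FE pigs between 5.95 and 6.05, above the highest low FE pig at 5.92. High FE pig 5, at 5.62, lay within the low FE range, and the difference of 0.22 ± 0.14 (SE) did not pass (adjusted p = 0.754 in limma). The other 5 chaperones and cofactors (HYOU1, DNAJB11, DNAJC3, SDF2L1 and MANF) differed by 0.01 to 0.10.

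Among the translocon genes, SSR2, a subunit of the translocon-associated protein complex, had 10.28, 10.76 and 11.09 in high FE as its lowest, median and highest value, against 10.72, 11.06 and 11.49 in low FE. High FE pigs 1, 4 and 5 lay below every low FE pig, and the other 3 lay among them. The difference was -0.37 ± 0.16 (SE), a fold of 0.775, with an adjusted p of 0.754 in limma. It was -0.49 within males and -0.24 within females.

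SPCS1, a small subunit of signal peptidase, had 7.15, 7.50 and 7.59 in high FE and 7.53, 7.67 and 7.78 in low FE. As for SSR2, 3 high FE pigs lay below the whole low FE group, and the difference was -0.21 ± 0.11 (SE). SEC61B, a small subunit of the channel itself, had 8.52, 8.96 and 9.13 in high FE and 8.58, 9.22 and 9.39 in low FE, a difference of -0.26 ± 0.16 (SE). SEC63, which couples the channel to HSPA5, went the other way with 0.33 ± 0.22 (SE), and 4 high FE pigs lay above the highest low FE pig. None of these 3 differences passed, with an adjusted p of 0.754 to 0.755 in limma.

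The 7 sensors and factors overlapped between high and low FE. XBP1 averaged 9.18 ± 0.23 in high FE and 9.48 ± 0.52 in low FE (SD, n = 6 each), a difference of -0.30 ± 0.21 (SE). Low FE pigs 2, 3 and 6, at 9.98, 10.02 and 9.82, lay above every high FE pig, whose highest value was 9.48, and the other 3 low FE pigs lay between 8.89 and 9.09. ATF4 averaged 8.62 ± 0.17 in high FE and 8.76 ± 0.29 in low FE (SD, n = 6 each), a difference of -0.14 ± 0.14 (SE). DDIT3 (CHOP), a factor of prolonged stress, averaged 6.04 ± 0.30 in high FE and 5.97 ± 0.18 in low FE (SD, n = 6 each), a difference of 0.07 ± 0.15 (SE). TRIB3, a target of both, differed by 0.31 ± 0.24 (SE). ATF6, ERN1 and EIF2AK3, the 3 sensors, differed by -0.10, 0.04 and 0.01. No sensor or factor had an adjusted p below 0.764 in limma.

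**Figure D2:**
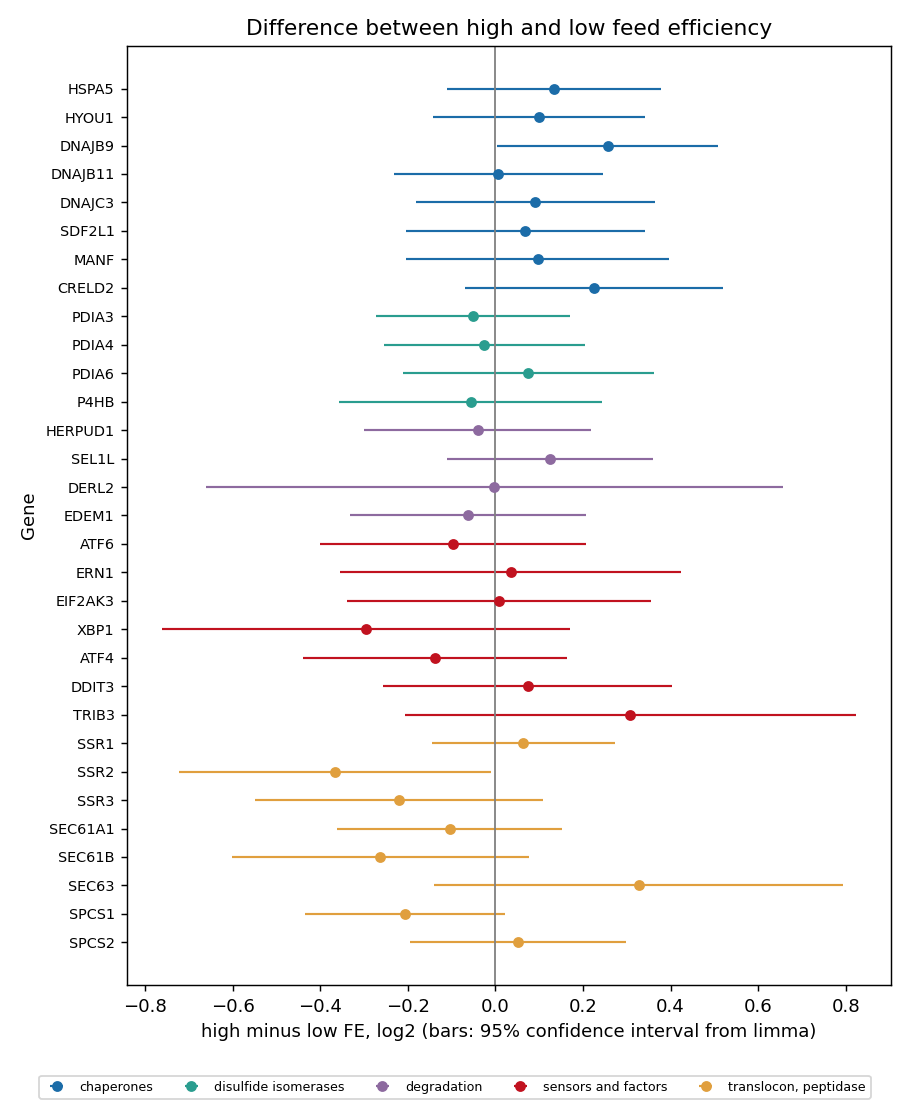
Differences between high and low FE (log2, horizontal axis) for the 31 genes, by role, with 95% confidence intervals from limma. The 8 chaperones lie right of 0, between 0.01 and 0.26, while SSR2 at -0.37 and SEC63 at 0.33 mark the ends among the translocon genes.

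The FE difference of the translocon genes was also fitted with array background as a term. Background medians ranged from 2.16 to 2.46 over the high FE arrays and from 2.25 to 2.53 over the low FE arrays. With this background as a term, the translocon median was -0.042, with SSR2 at -0.17 and SEC61B at -0.083.

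Markers of several other cell types leaned with FE. Brunner gland and gastric-type markers averaged 7.40 ± 1.16 in high FE and 8.38 ± 1.35 in low FE (SD, n = 6 each), with 0 of 9 higher in high FE. Of the listed markers, MUC6, TFF1 and CTSE were not matched on the array. The widest ranges were those of GKN1 (3.27 to 12.17), GKN2 (2.62 to 11.10) and MUC5AC (6.19 to 12.42). LYZ ranged from 10.46 to 12.65 and GHRL from 5.61 to 6.59. This mean, called the Brunner mean for short, does not separate Brunner gland from gastric-type cells. Pancreatic acinar markers averaged 4.06 ± 0.09 in high FE and 4.63 ± 1.05 in low FE, where pig 6 stood at 6.75, with 0 of 12 higher in high FE. Smooth muscle markers averaged 7.61 ± 0.14 in high FE and 7.92 ± 0.30 in low FE, with 1 of 11 higher in high FE. With the Brunner mean as a term the translocon median was -0.099, and with the pancreatic mean, there without CPB1, which lay below the filter, -0.087. The part of smooth muscle was not tested.

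All 11 goblet markers had a lower mean in high FE. The goblet score used in the models is the mean of 10 of them, since ZG16 lay below the filter on low values. It ranged from 8.48 to 8.96 in high FE and from 8.85 to 9.22 in low FE. The lowest scores, 8.66 and 8.48, were those of high FE pigs 1 and 5, whose arrays also had the lowest background medians, 2.17 and 2.16. With that score as a model term, the FE difference changed sign to 0.28 for SSR2, 0.32 for SEC61B and 0.26 for XBP1, and the median over the translocon genes to 0.12. The median over the chaperones was then 0.21. With this term SSR2, SEC61B and XBP1 had an unadjusted p of 0.172, 0.127 and 0.465 in limma, and none passed after adjustment. Because the score itself differed between the FE groups, this fit separates score and FE poorly. The part of goblet cells in the FE differences was not tested beyond this. This term and the slopes on it were added after the data were seen.

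In a slope on the goblet score with FE and sex as terms, 4 of the 8 translocon and signal peptidase genes had an unadjusted p under 0.05, and their slopes did not share a sign. SEC63 had a slope of -2.27 ± 0.77 (SE) log2 units per unit of the score, the lowest of the 31 genes. SSR2 had a slope of 2.01 ± 0.50 (SE), SEC61B 1.81 ± 0.50 and SSR3, another subunit of the translocon-associated protein complex, 1.75 ± 0.49. The adjusted p of these 4 genes, 0.0613 to 0.131 in limma, missed the threshold. Outside the translocon, ERN1 had -1.82 ± 0.66 (SE) and MANF 1.32 ± 0.52 (SE). Of the 31 genes, 6 had an unadjusted p under 0.05, or 19.4%, against a background of 20.1% of all probe sets, a share close to that of the rest of the array. The adjusted threshold was passed by 1.6% of all probe sets, or 535, but this count ranged from 0 to 1426 when each pig was left out, and it was 0 in the absence of low FE pig 4, or of pig 1, 3 or 6 of the high FE group. Without high FE pigs 1 and 5, the 2 farthest from the median, 0 probe sets passed, and 1 of the 31 genes had an unadjusted p under 0.05. The slope of SSR2 was then 1.54, that of SEC61B 1.65 and that of SSR3 1.35.

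Of 117 other genes listed for the same machinery, 94 were tested. Between high and low FE 0 passed in limma, and 2 had an unadjusted p under 0.05, or 2.13% against 5.99% of all probe sets. HSPA13, an atypical Hsp70 of the ER, averaged 6.57 ± 0.26 in high FE and 6.25 ± 0.16 in low FE (SD, n = 6 each), a difference of 0.32 ± 0.14 (SE). DDOST, a subunit of the oligosaccharyltransferase that attaches N-glycans, averaged 9.75 ± 0.35 in high FE and 10.09 ± 0.23 in low FE, a difference of -0.34 ± 0.16 (SE). Both had an adjusted p of 0.754 in limma.

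Between males and females, 27 of the 31 genes had a higher mean in males, or 87.1%, against 50.6% of all probe sets. The median difference was 0.18, against 0.00 over all probe sets. When each gene was averaged over its probe sets, or with array background as a term, 23 of 31 had a higher mean in males. The share of all probe sets higher in males was not counted in those fits. Of 17 genes with several tested probe sets, 8 had a sex difference of 1 sign in all of them. None passed an adjusted p of 0.05 in limma, where 7 probe sets did (0.021%). An unadjusted p under 0.05 was found for 9 of 31, or 29%, all higher in males, against a background of 2.31% of probe sets higher in males at that p. They were HYOU1, SSR1, DERL2, HSPA5, PDIA4, PDIA6, PDIA3, MANF and SEC61A1, each with an adjusted p of 0.975. A lean of ER genes towards males was known from earlier work on these arrays, so the count is no independent evidence of it.

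The lean was spread over the roles. Medians were 0.14 for chaperones (6 of 8 higher in males), 0.27 for disulfide isomerases (4 of 4), 0.16 for degradation genes (4 of 4), 0.18 for sensors and factors (6 of 7) and 0.16 for translocon genes (7 of 8). Of the 9 genes, 3 were chaperones or cofactors, 3 isomerases, 2 translocon genes and 1 a degradation gene, and none was a sensor or factor. Averaged over the 31 genes, the deviation from the 12-pig mean lay between 0.03 and 0.17 in the 6 males and between -0.19 and -0.01 in the 6 females, so the sexes did not overlap on this average. With the lean known beforehand, this average is no independent evidence of it, and no average over other genes was compared.

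HYOU1 (GRP170), an Hsp110-type chaperone and exchange factor of HSPA5, had the lowest p of the 31. Its lowest, median and highest values were 8.47, 8.61 and 8.94 in males, against 7.99, 8.07 and 8.37 in females. Every male lay above every female. The difference was 0.52 ± 0.11 (SE), a fold of 1.43 with a 95% confidence interval of 1.21 to 1.69 (unadjusted p = 0.000551, adjusted p = 0.975 in limma).

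HSPA5 had 10.40, 10.73 and 10.87 in males and 10.10, 10.34 and 10.55 in females. The sexes overlapped, with 4 males above the highest female and 5 females below the lowest male. Its difference was 0.35 ± 0.11 (SE), a fold of 1.27. MANF, a secreted ER stress factor that binds HSPA5, had 7.53, 7.85 and 8.08 in males and 7.25, 7.46 and 7.90 in females, with overlap and a difference of 0.32 ± 0.14 (SE). DNAJB9 and DNAJB11, both Hsp40 cochaperones of HSPA5, had lower means in males by -0.06 and -0.12. DNAJC3, SDF2L1 and CRELD2 differed by 0.11, 0.18 and 0.05.

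Disulfide isomerases form and reshuffle the disulfide bonds of new proteins. PDIA3 (ERp57), which works with the lectin chaperones on glycoproteins, had 11.04, 11.08 and 11.37 in males and 10.72, 10.92 and 10.99 in females, without overlap. The difference was 0.25 ± 0.10 (SE). PDIA4 (ERp72) had 9.86, 10.04 and 10.19 in males and 9.57, 9.76 and 9.93 in females, where 5 males lay above the highest female, and it differed by 0.29 ± 0.11 (SE). PDIA6, an isomerase that binds HSPA5, had 8.70, 8.98 and 9.47 in males and 8.42, 8.70 and 8.74 in females. Here too 5 males lay above the highest female, and the difference was 0.36 ± 0.13 (SE). P4HB (PDI) differed by 0.07 ± 0.14 (SE).

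SSR1, the alpha subunit of the translocon-associated protein complex, had 8.28, 8.46 and 8.56 in males and 7.93, 8.05 and 8.18 in females. All 6 males lay above all 6 females, and the difference was 0.38 ± 0.10 (SE), a fold of 1.30 with an unadjusted p of 0.00193 and an adjusted p of 0.975 in limma. Its other probe set differed by 0.67 in the same direction. SEC61A1, the pore-forming subunit of the channel, had 9.36, 9.72 and 9.94 in males and 9.29, 9.39 and 9.70 in females, with overlap and a difference of 0.27 ± 0.12 (SE). SSR2 and SEC61B differed by 0.28 and 0.22, and SSR3, SEC63, SPCS1 and SPCS2 by -0.05 to 0.11. HYOU1, SSR1 and PDIA3 were the 3 of 31 genes whose sexes did not overlap with males higher, against 0.138% of all probe sets.

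**Figure D3:**
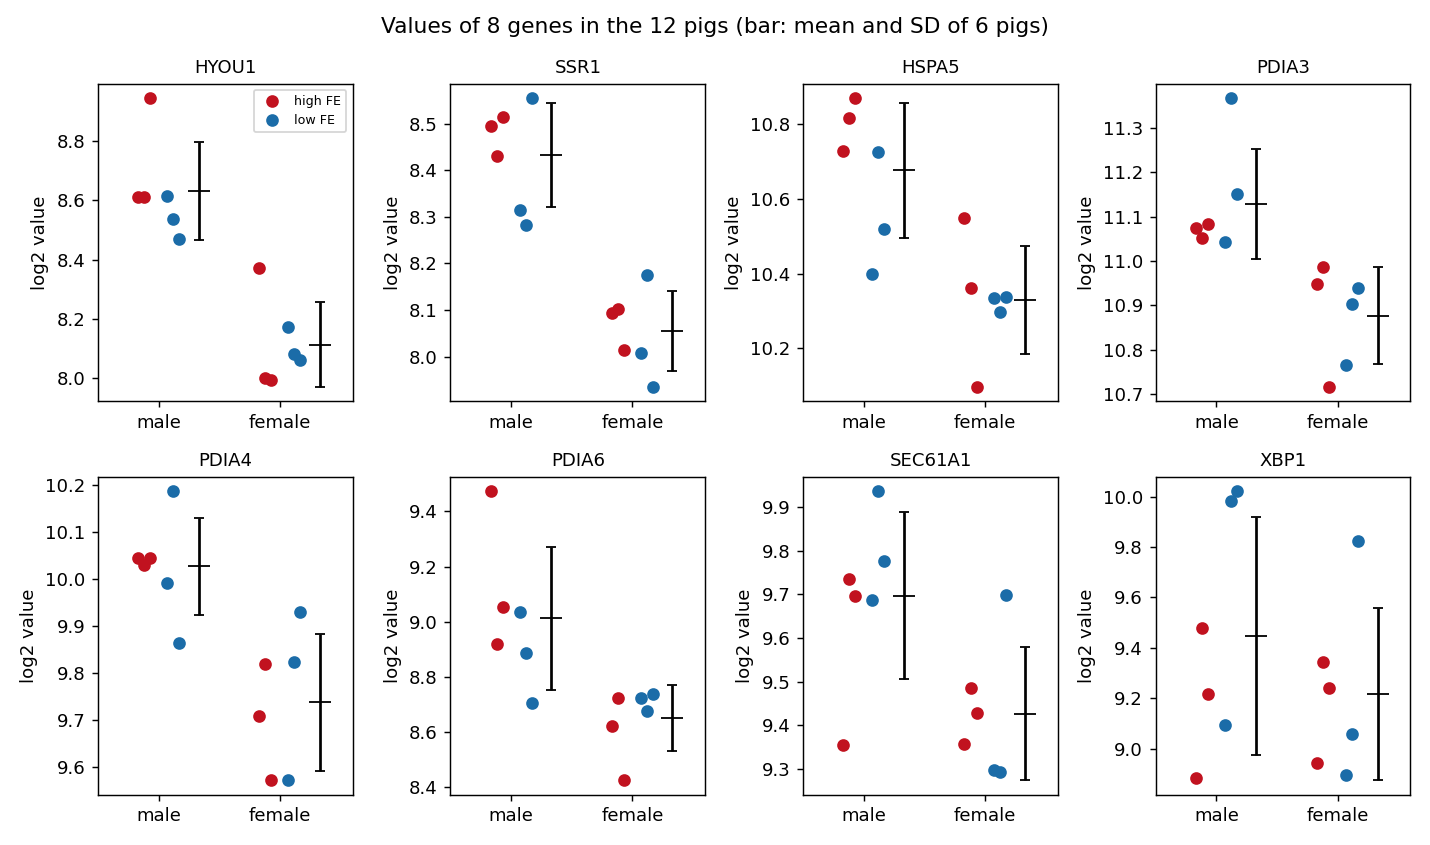
Log2 values of 8 genes in the 12 pigs, males left and females right, red for high FE and blue for low FE, with the mean and SD of 6 pigs beside each sex. In HYOU1, SSR1 and PDIA3 every male lies above every female, while XBP1 is split by 2 low FE males and 1 low FE female at 9.82 or above.

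Among degradation genes, DERL2, a membrane protein of the retrotranslocation machinery, had 5.14, 6.25 and 6.86 in males and 4.77, 5.12 and 5.79 in females. The sexes overlapped, and the difference was 0.95 ± 0.30 (SE), the highest of the 31. Its 3 other probe sets differed by 0.19, -0.11 and 0.01, so the probe sets of this gene disagree. HERPUD1, an XBP1 and ATF6 target that organises the degradation complex, differed by 0.18 ± 0.12 (SE), but its other 6 probe sets ranged from -0.94 to 0.13. EDEM1, which marks glycoproteins for degradation, differed by 0.14, and SEL1L, the scaffold of the ubiquitin ligase, by 0.03.

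Sensors and factors had positive but uncertain differences. ERN1 differed by 0.31 ± 0.18 (SE), EIF2AK3 by 0.22 ± 0.16, XBP1 by 0.23 ± 0.21, ATF4 by 0.18 ± 0.14 and DDIT3 by 0.07 ± 0.15, and all 5 intervals include 0. ATF6 differed by -0.01 ± 0.14 (SE) and TRIB3 by 0.05 ± 0.24. The array does not separate spliced from unspliced XBP1 in these values, and activity of the sensors was not measured.

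**Figure D4:**
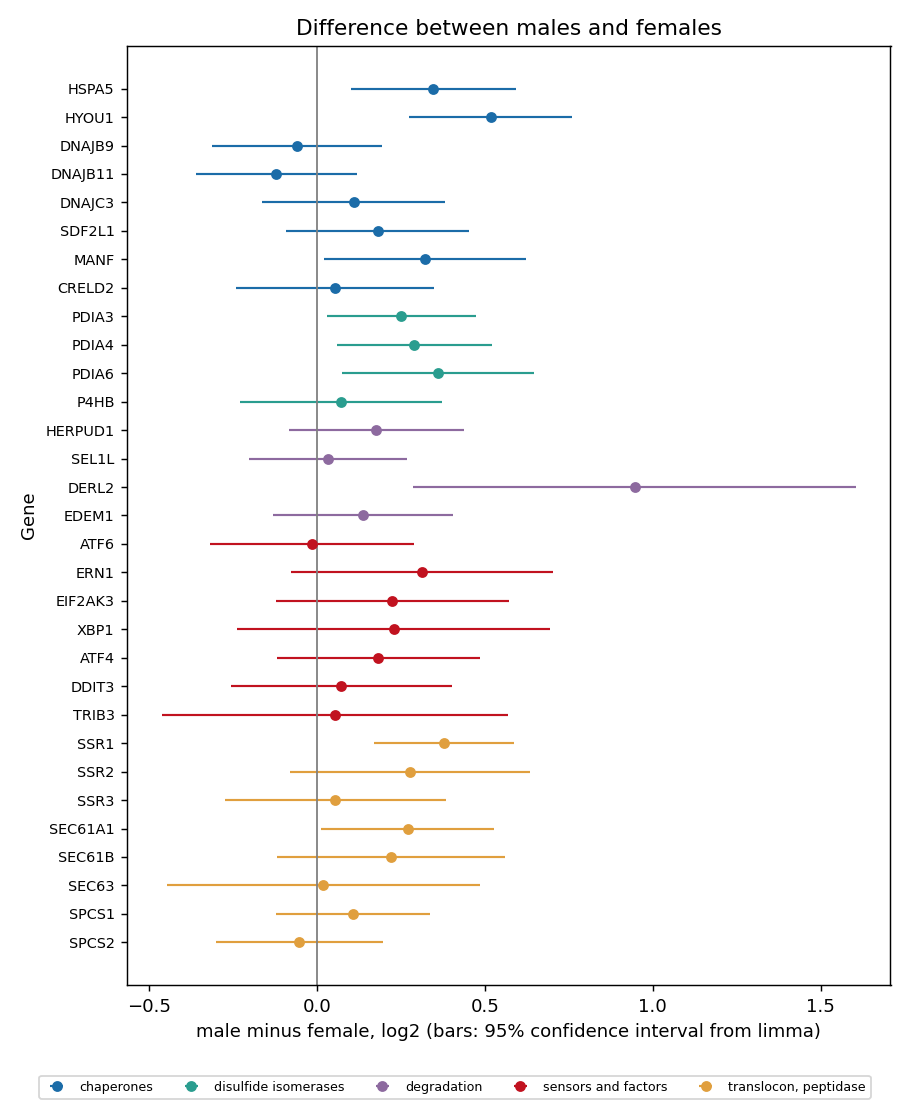
Differences between males and females (log2, horizontal axis) for the 31 genes, by role, with 95% confidence intervals from limma. The intervals of 9 genes lie wholly right of 0, from HYOU1 at 0.52 and DERL2 at 0.95 to PDIA3 at 0.25, and no interval of a sensor or factor does.

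Pig identifiers fell into a lower and an upper run of numbers, and the labels do not say what the runs stand for. All 6 males and 2 females were in the lower run, and the other 4 females in the upper. Within the lower run, 26 of the 31 genes had a higher mean in males, and 3 had an unadjusted p under 0.05. There HYOU1 differed by 0.36 (8.63 in males, 8.27 in the 2 females), SSR1 by 0.38 and HSPA5 by 0.24. The median over sensors and factors was 0.40 there, with XBP1 at 0.53. With the run as a term, 6 genes had an unadjusted p under 0.05. Shares of all probe sets were not counted within the lower run or with this term. For the 4 females of the upper run, sex and run cannot be told apart.

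Marker lists of secretory cells leaned in part with sex. Brunner gland and gastric-type markers ranged from 6.04 to 10.48 in males and from 6.67 to 8.88 in females, and 7 of 9 had a higher mean in males. For goblet cells the median pig had 8.37 among males and 8.19 among females, the highest had 8.57 and 8.43, and 8 of 11 markers had a higher mean in males. Plasma cell markers ranged from 7.16 to 7.72 in males and from 7.11 to 7.61 in females, with 8 of 10 higher in males. Others leaned the opposite way or little. Endocrine and enteroendocrine markers averaged 6.66 in males and 6.71 in females, with 3 of 8 higher in males, pancreatic acinar markers had 1 of 12 and enterocyte markers 3 of 13 higher in males. The pancreatic mean had a median of 4.07 in males and 4.17 in females, where low FE pig 6 stood alone at 6.75. With the Brunner, goblet or plasma cell mean as a term, 6, 5 and 9 of the 31 genes had an unadjusted p under 0.05 between sexes, and the median difference was 0.16, 0.12 and 0.16. The share of all probe sets was not counted with these terms, so the counts have no background beside them. The median over translocon genes turned to -0.032 with the goblet term, and was 0.27 with array background as a term. The difference of HYOU1 was 0.54 with the Brunner and 0.47 with the goblet term.

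Of the 94 other genes of the machinery, 13 had an unadjusted p under 0.05 between sexes, or 13.8% against a background of 4.54%, and 0 passed after adjustment in limma. Of these, 12 had higher means in males. Among folding enzymes they were PPIB, PRDX4, AGR2, ERP29 and FKBP14, and among N-glycosylation genes RPN1, GANAB, UGGT1 and STT3A. The others were SEC11C of signal peptidase, the degradation ATPase VCP and the cystine transporter SLC7A11. PPIB, an ER prolyl isomerase, averaged 11.08 ± 0.06 in males and 10.77 ± 0.12 in females (SD, n = 6 each), without overlap. RPN1, a subunit of the oligosaccharyltransferase, averaged 10.13 ± 0.11 in males and 9.85 ± 0.09 in females. AGR2, a disulfide isomerase of mucus-producing cells that is also on the goblet list, differed by 0.91 ± 0.34 (SE). STC2, a secreted glycoprotein induced in the EIF2AK3 branch, was the 1 gene with a lower mean in males, 4.30 ± 0.10 against 4.59 ± 0.15 in females.

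Whether the FE difference depended on sex was tested as an interaction. None of the 31 genes had an adjusted p below 0.05, or an unadjusted p under 0.05, in limma, where 0.00299% of all probe sets had the first and 3.27% the second. PDIA6 had the lowest p, with an FE difference of 0.27 in males and -0.12 in females, and an interaction of 0.40 ± 0.25 (SE). Its values were 9.47, 8.92 and 9.05 in high FE males, against 9.04, 8.88 and 8.70 in low FE males. In females they were 8.62, 8.72 and 8.42 in high FE, against 8.72, 8.68 and 8.74 in low FE. High FE male 1 stood above all other pigs, and the rest of the males overlapped. ATF4 followed, with -0.31 in males and 0.03 in females and an interaction of -0.34 ± 0.27 (SE). Both had an adjusted p of 0.999. Of the 94 other genes, FAF2, a factor of ER-associated degradation, was the 1 with an unadjusted p under 0.05, at 1.05 ± 0.35 (SE).

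HSPA5 is often read as the gauge of ER chaperone load, and the slope of each other gene on it was fitted with FE and sex as terms. Of 30 genes, 22 had a positive slope, or 73.3% against 47.1% of all probe sets, with a median of 0.14 log2 units per unit of HSPA5, against -0.04 over all probe sets. None passed after adjustment in limma, as in 0% of all probe sets, and 1 of 30, or 3.33%, had an unadjusted p under 0.05, against a background of 3.1%. That gene was DNAJC3 (p58IPK), a cochaperone of HSPA5 and inhibitor of EIF2AK3, with a slope of 1.04 ± 0.39 (SE). The count was 0 when high FE pig 6 and 2 when high FE pig 3 was left out. SEL1L had 0.61 ± 0.39 and HYOU1 0.58 ± 0.40, while P4HB had -0.73 ± 0.50 and ERN1 -0.96 ± 0.64. Single pigs weighed on these values. The slope of P4HB was -0.145 without low FE pig 1, and that of ERN1 -0.55 without high FE pig 4. With high FE pig 6 left out, ERN1 had -1.99 and SEL1L 0.38. The chaperones had the highest median slope of the roles, 0.56 over 7 genes, followed by 0.37 over 4 isomerases, and translocon genes and sensors had 0.09 and 0.10. Without FE and sex as terms, 8 genes had an unadjusted p under 0.05, against a background of 4.5%, and the slope of ERN1 was 0.22.

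Among other genes of the machinery, HSPA13 had a slope of 1.12 ± 0.43 (SE) on HSPA5 and SLC3A2, the heavy chain of amino acid transporters, -1.12 ± 0.50. Outside the lists, the 5 positive slopes with the lowest p belonged to CRMP1, PRRT3, C12orf24, TBX1 and DCTN6, and the 5 negative ones to LAX1, CANT1, TBC1D22B, KIFC3 and SMURF1. Their slopes ranged from 1.97 to 5.65 and from -5.85 to -2.11 over 12 pigs, and each had an adjusted p of 1.00 in limma.

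XBP1 was also set against the Brunner gland and gastric-type markers, in a slope fitted after its values had been seen. With FE and sex as terms, XBP1 had a slope of 0.26 ± 0.06 (SE) per unit of the marker mean (unadjusted p = 0.00149, adjusted p = 0.152 in limma), which missed the threshold. Its slope on HSPA5 was 0.15 ± 0.84 (SE). The marker mean spanned 4.43 units over the 12 pigs and HSPA5 0.77, so these slopes per unit cannot be compared directly. Low FE pigs 2, 3 and 6, which had the 3 highest XBP1 values, had marker means of 9.14, 10.48 and 8.88, and high FE pig 2 had 9.01 with an XBP1 value of 9.48. These pigs and high FE pig 5 had the highest marker means. They also had the lowest enterocyte means, 8.30 to 9.12, against 9.59 to 10.21 in the other pigs. This slope therefore cannot tell a high marker mean from a low enterocyte mean, and a slope on the enterocyte mean was not fitted. The slope of XBP1 on the marker mean was 0.23 without low FE pigs 2 and 3, the 2 pigs farthest from the median, and 0.24 to 0.29 when each pig was left out.

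Of the 31 genes, 2 had an unadjusted p under 0.05 for this slope, or 6.45% against a background of 8.21%. The other was P4HB, with a slope of -0.12 ± 0.05 (SE), and HSPA5 had 0.01 ± 0.05. With the marker mean as a term, the FE difference of XBP1 was -0.04 and its sex difference 0.09. Among other genes of the machinery, AGR2 and TUSC3, a subunit of the oligosaccharyltransferase, passed the threshold with slopes of 0.46 ± 0.08 and 0.88 ± 0.12 (adjusted p = 0.0494 and 0.0130 in limma), as did 0.38% of all probe sets, or 127. That count was 38 without low FE pig 3, 51 without low FE pig 1, 55 without high FE pig 5, 73 without high FE pig 2, 74 without low FE pig 5 and 79 without low FE pig 4. It was 10 without low FE pigs 2 and 3.

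**Figure D5:**
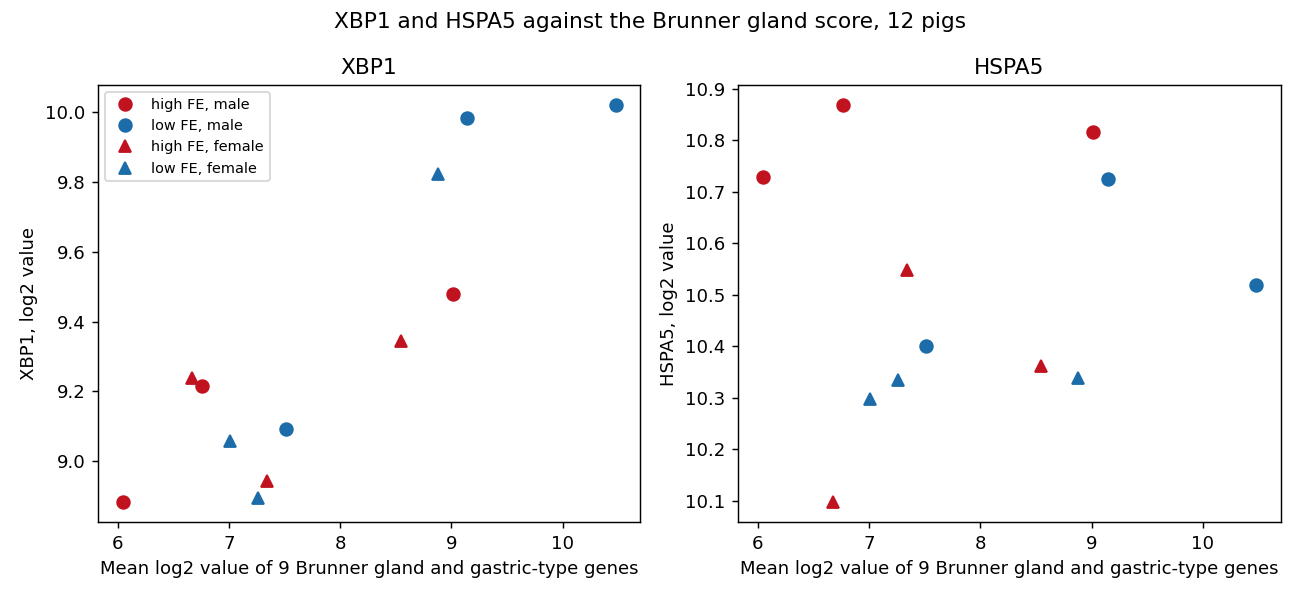
XBP1 (left) and HSPA5 (right) log2 values against the mean log2 value of 9 Brunner gland and gastric-type genes in the 12 pigs, by FE (colour) and sex (symbol). XBP1 is highest in the low FE pigs with marker means of 8.88, 9.14 and 10.48, whereas HSPA5 spans 10.10 to 10.87 with a slope of 0.01 per unit.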

How the data were processed

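Log2 values for 47845 probe sets in 12 arrays were used as deposited by the authors. The scale was read from the values (0.21 to 14.21), while the sources used here do not give background correction, normalization or probe summarization. The submitters' processing notes name GCOS 1.1.1, and RNA was labelled by whole-transcript cDNA synthesis per the labels' protocols.

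Groups, sex and age came from the labels. The 36 genes, the gene lists and the tests were chosen with earlier results of these data known. Symbols came from the array's annotation, and 5 other listed genes were found under older symbols. After removal of 123 control probe sets, 33405 probe sets with a mean above 2.37, the 30th percentile, were tested in limma 3.58.1 (R 4.3.3, lmFit and eBayes), with Benjamini-Hochberg adjustment over all of them and called at an adjusted p under 0.05. FE and sex were terms of the same model. Interaction and slope models were fitted likewise. Marker means used as terms left out markers below the filter, and the plasma cell, goblet and enterocyte terms were added after the data were seen. Values by group are given for the 4 genes with the lowest p for FE and for sex, and by FE for HSPA5, XBP1, ATF4 and DDIT3. Of the 2 genes with the lowest p for the interaction, PDIA6 is given by pig and ATF4 by its differences within each sex. The 5 genes with the lowest p for the HSPA5 slope are given with slope and SE. Others named in passing were chosen with their values seen. The fits were tested on simulated data. Alternatives changed the filter, normalization, variance model, weights, terms, probe set rule and set of pigs. The number of arrays limits precision.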

Additional observations from a re-analysis of the deposited data

Results flagged for a closer look

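In each FE group of 6 pigs, the highest and the lowest value were checked for a wide gap to the nearest other pig (Dixon's test). Of 76 groups, 8 held such a pig, and chance alone flags about 1 in 20 groups. High FE pig 5 was low in CRELD2, at 5.62 against 5.95 to 6.05 in the other high FE pigs, and in SPCS1, at 7.15 against 7.45 to 7.59. High FE pig 6 had 10.72 in PDIA3 against 10.95 to 11.08 in the others of its group, and high FE pig 3 had 8.51 in SPCS2 against 8.77 to 8.82. Low FE pig 5 had 8.33 in DNAJB11 against 7.94 to 8.09 in the other low FE pigs, and low FE pig 1 had 6.80 in ERN1 against 6.26 to 6.39.

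Among marker means, low FE pig 6 had 6.75 for 12 pancreatic acinar genes, against 4.03 to 4.40 in the other low FE pigs. High FE pig 4 had 7.34 for 11 smooth muscle genes, against 7.61 to 7.72 in the other high FE pigs.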

How the results depend on the processing

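No gene of the 31 passed the adjusted threshold in any fit run, and 12 pigs limit what could pass. Apart from the HSPA5 slope without covariates, shares of all probe sets at an unadjusted p under 0.05 are given only for the main fits. For FE, genes at an unadjusted p under 0.05 numbered 2, but 1 with quantile normalization, the goblet term or FE alone, and 0 with array weights or the background, pancreatic, Brunner, identifier-run, plasma cell or enterocyte terms. Leaving out 1 pig gave 0 to 3, with 3 when high FE pig 6 and 2 when low FE pig 4 was left out, and 0 or 1 otherwise. Probe sets past the threshold were 0, or 1 without low FE pig 4 (range 0 to 1). With the goblet term, FE differences reversed for SSR2 (0.28), SEC61B (0.32), XBP1 (0.26), ATF4 (0.071), DDIT3 (-0.34), and so did the medians of translocon genes (0.12) and sensors (-0.25). The unadjusted p of these genes with that term was 0.127 to 0.777 in limma. DDIT3 also reversed with the mean of all probe sets (-0.017), the background term (-0.072) and without high FE pig 5 (-0.039).

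For sex, genes at an unadjusted p under 0.05 numbered 9, but 5 with the goblet term and 3 in the lower identifier run, and 6 to 10 without 1 pig. Probe sets past the threshold were 7, but 3 with the run as a term and 4 within the lower run. XBP1 (-0.093) and the translocon median (-0.032) reversed with the goblet term, and DDIT3 (-0.057) with the background term.

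For the interaction, 1 probe set passed, but 0 with the median filter and 0 to 1 without 1 pig; 1 gene had an unadjusted p under 0.05 with the mean of all probe sets. On HSPA5, genes at an unadjusted p under 0.05 numbered 1, but 2 with quantile normalization, 0 with the mean of all probe sets, 8 without covariates, and 0 to 2 without 1 pig (0 without high FE pig 6, 2 without high FE pig 3). The median slope of 0.14 became 0.22 with quantile normalization, 0.25 without covariates, 0.33 without high FE pigs 3 and 6, and 0.055 to 0.33 without 1 pig (lowest without low FE pig 6, highest without high FE pig 6). ERN1 reversed to 0.22 without covariates. The causes were not tested. No paired analysis was possible because the labels give no replicate numbers.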
